A study of Homo sapiens with 18 samples.

Results

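The genes described here encode the machinery that transcribes the human genome: subunits of RNA polymerases I, II and III, the Mediator complex, the general transcription factors of the TFII and TFIII classes with the TATA-binding-protein-associated factors (TAFs), the Integrator complex, the cyclins of the elongation kinase P-TEFb and the SPT elongation factors. Members were chosen by gene symbol alone, a rule that uses no measured value but was set with earlier results of these data known. Symbols had to be MED, TAF, INTS or SUPT with a number, or POLR1 to POLR3 with a single letter. Also taken were symbols beginning GTF2, GTF3A and GTF3C with or without a number, CCNT1, CCNT2, and CDK7 to CDK9. Longer symbols such as POLR3GL fell outside the pattern. The pattern found 111 of the 8996 genes in the deposited table of RNA half-lives. Of these, 25 belong to the RNA polymerases, 27 to Mediator, 15 to the TAFs of TFIID and SAGA, 3 to the TAFs of SL1, 9 to TFIIA, TFIIB, TFIIE, TFIIF and TFIIH, 7 to TFIIIA and TFIIIC, 13 to Integrator, 2 to P-TEFb, 7 to the SPT factors and 2 to the TFII-I family. The remaining match, SUPT16HP1, and GTF2IP20 of the TFII-I family are annotated as pseudogenes, so their values are uncertain against SUPT16H and GTF2I. POLR2A, CDK7 and CDK9, which carry the catalytic sites of RNA polymerase II, TFIIH and P-TEFb, were not analysed here.

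RNA polymerase I makes the large ribosomal RNA, RNA polymerase II makes mRNA, and RNA polymerase III makes transfer RNA and other small RNAs. TFIID with its TAFs recognises the promoter, TFIIA to TFIIH place and open it, and Mediator relays signals from activators to the polymerase. P-TEFb and the SPT factors carry the polymerase into elongation, while Integrator cleaves nascent RNA and ends transcription of small nuclear RNAs and of paused genes.

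HEK293T is a line derived from human embryonic kidney cells, and its genotype is labelled WT in all 18 samples. Cells received the solvent DMSO or STM2457, a small-molecule inhibitor of the m6A methyltransferase METTL3, for 3 h. They were then given 100 µM 4-thiouridine (s4U) for 90 or 180 min, or none, with 3 samples in each of the 6 combinations and 18 samples in all. SLAM-seq alkylates the s4U so that new RNA shows T-to-C conversions in sequencing reads, and the fraction of new RNA gives a synthesis rate and a half-life. For each gene the table has a single fitted half-life and a single fitted rate of synthesis in either treatment, without replicate values, intervals or counts. Depth is therefore unknown, no SD or p-value can be given, and each difference is between 2 fitted values. A gene is called longer-lived or shorter-lived where the half-life in STM2457 differed from that in DMSO by more than 1.5-fold, a rule of size and no test. Hours are inferred, because half-lives end at 69.3, the value for a decay rate of 0.01 per unit of time. This largest value is called the ceiling, and a ratio that reaches it has no measured upper size. Labelling lasted at most 180 min, and how well half-lives far longer than that were resolved is not known. Exons of another annotated gene lie on the same strand in 15 members (INTS5, INTS11, MED6, MED17, MED20, MED24, MED25, MED26, POLR2C, POLR2D, POLR2M, TAF1D, TAF10, SUPT4H1 and GTF2H3), whose values are uncertain. Exons on the opposite strand overlap 52 members, and the sources used here do not say whether counting used the strand. Of 8 genes listed as HEK293T markers 5 were listed in the table, and of 10 markers of other cell types 2 were.

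Transcripts of the transcription machinery turned over at about the pace of all genes, and they spread widely among themselves. In DMSO the 111 members had a median half-life of 5.31 h, with quartiles at 2.93 and 9.32 h. In STM2457 the median was 5.10 h and the quartiles were 2.89 and 10.7 h. Medians over all 8996 genes were 5.61 and 5.39 h. The shortest-lived member in DMSO was TAF1D, a subunit of SL1, at 0.792 h, and the longest-lived was MED24, of the Mediator tail, at 45.4 h. In STM2457, 28 members were longer-lived (25.2%, against 28.5% of all genes), 19 were shorter-lived (17.1%, against 24.9% of all genes) and 64 lay within 1.5-fold. Both shares lay below those of all genes. The median log2 ratio of the members was -0.11, against -0.01 over all genes, while their mean was 0.20. The mean and the median thus differed in sign, with 9 members longer-lived past 4-fold (8.97% of all genes were) and 1 shorter-lived past 4-fold (1.4% of all genes were). At the ceiling in STM2457 were 7 members (10.9% of all genes were), and in DMSO 0 were (2.55% of all genes were). Both half-lives lay between 0.5 and 24 h in 96 members, a range that removes members for long values in STM2457. Of these 96, 15 were longer-lived (15.6%, against 20.3% of all such genes) and 19 shorter-lived (19.8%, against 27.4%).

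**Figure D1:**
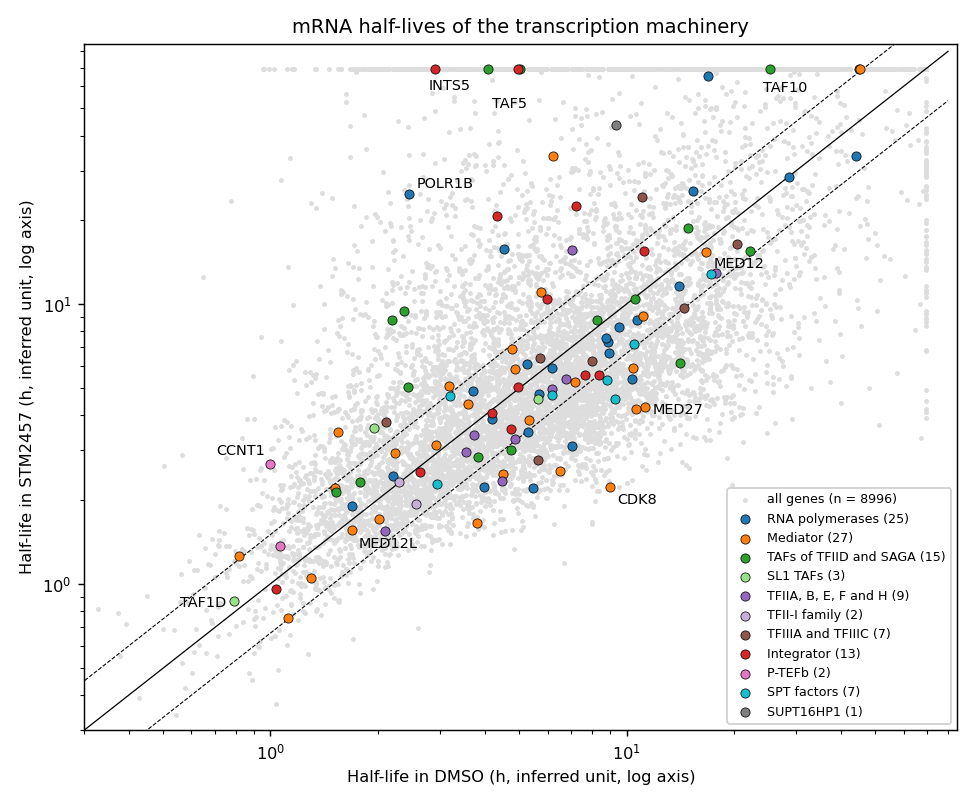
Half-life in DMSO (x axis) and in STM2457 (y axis), in hours as an inferred unit, on log axes. Grey points are all 8996 genes, of which 8 with a value under 0.3 h lie outside the axes, and coloured points are the 111 members. The solid line marks equal half-lives, dashed lines mark 1.5-fold, and the row of points along the top is the ceiling at 69.3 h.

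**Figure D2:**
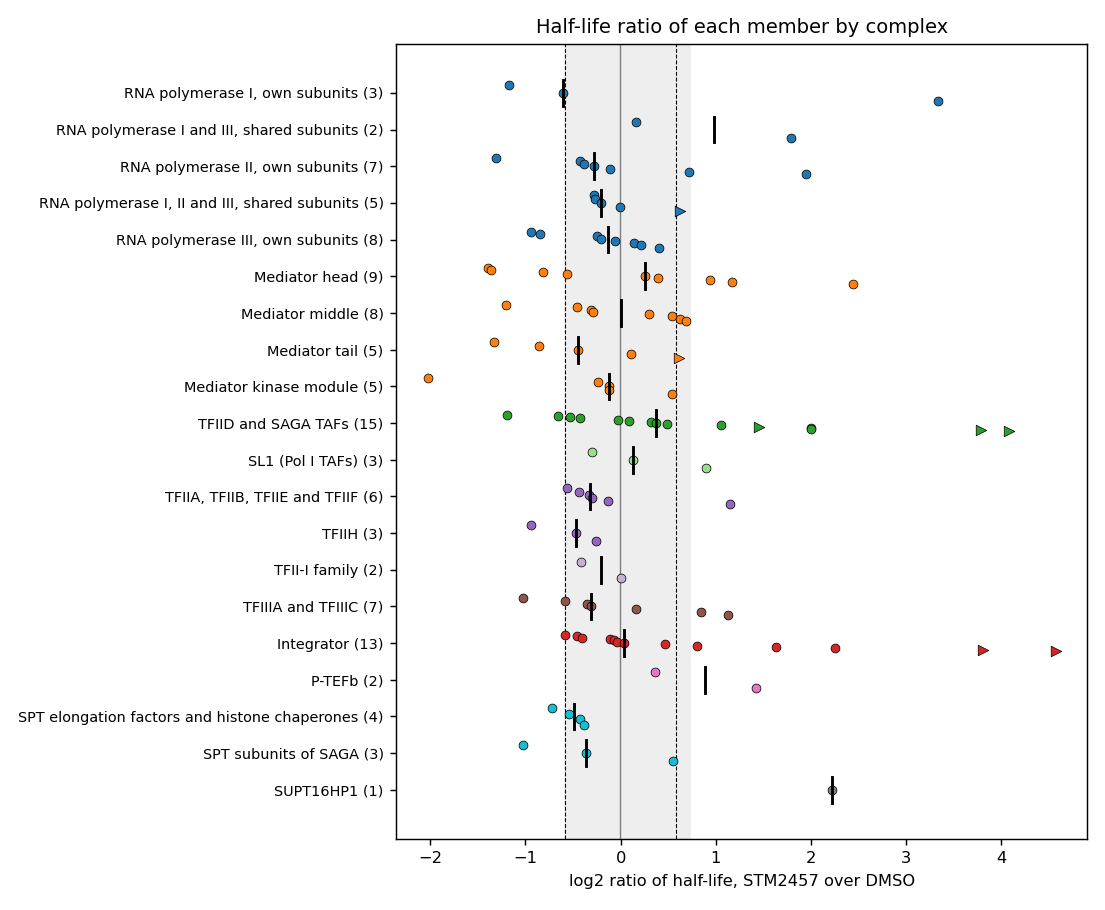
The log2 ratio of half-life, STM2457 over DMSO, for each member by complex, with the number of members in parentheses. Thick bars are medians, triangles are members at the ceiling in STM2457, the grey band spans the quartiles of all genes and dashed lines mark 1.5-fold. TAFs and Integrator reach furthest to the right and the Mediator kinase module furthest to the left.

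Among the polymerases, the subunits of RNA polymerase I differed most from each other. POLR1B (ENSG00000125630.15, GRCh38 chromosome 2, 112541915 to 112577150), the second-largest subunit, went from 2.45 h in DMSO to 24.8 h in STM2457, 10.1-fold longer. POLR1A, the largest subunit, went from 5.28 to 3.48 h (1.52-fold shorter), and POLR1E from 7.01 to 3.10 h (2.26-fold shorter). The catalytic pair POLR1A and POLR1B thus fell on opposite sides, with POLR1A just past the rule. POLR1C and POLR1D, which RNA polymerases I and III share, also differed: POLR1D was 3.47-fold longer-lived, from 4.52 to 15.7 h, and POLR1C had 1.70 and 1.89 h. TWISTNB and CD3EAP, older names for the RNA polymerase I subunits POLR1F and POLR1G and therefore missed by the pattern, were 3.39-fold and 8.31-fold longer-lived, from 2.01 to 6.81 h and from 2.45 to 20.3 h.

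Subunits of RNA polymerase II were among the most stable transcripts of the machinery. The medians of the 7 subunits of its own were 10.7 h (DMSO) and 8.79 h (STM2457), and the 5 subunits that all polymerases share had 14.1 and 11.6 h. POLR2B, the second-largest subunit, had 8.96 and 6.67 h, a log2 ratio of -0.43. POLR2I, at 44.0 and 33.7 h, was the longest-lived of its group in DMSO, and POLR2E, which all polymerases share, had 45.1 h and then the ceiling. POLR2G and POLR2D together form the stalk of the enzyme. POLR2G went from 16.9 to 65.0 h (3.85-fold longer), a value just under the ceiling, whereas POLR2D had 4.19 and 3.89 h. POLR2J was 1.64-fold longer-lived, from 15.4 to 25.3 h. The shorter-lived transcript here was POLR2M, a polymerase-associated protein that inhibits initiation, from 5.46 to 2.20 h (2.48-fold). POLR2M shares exons with GCOM1 on the same strand. The shared subunits POLR2F, POLR2H, POLR2K and POLR2L had log2 ratios between -0.28 and -0.00, all within 1.5-fold.

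RNA polymerase III held the narrowest range of the 3 enzymes among own subunits, which leaves out the shared POLR1D (3.47-fold longer-lived). Of its 8 own subunits 0 were longer-lived (28.5% of all genes were) and 2 shorter-lived (25%, against 24.9% of all genes). The other 6 lay within 1.5-fold (75%, against 46.6%), and the log2 ratios ran from -0.94 to 0.41. POLR3K, a subunit that acts in RNA cleavage and termination, went from 10.4 to 5.40 h (1.92-fold shorter), and POLR3C from 3.98 to 2.22 h (1.80-fold shorter). The catalytic subunits POLR3A and POLR3B stayed within 1.5-fold, at 5.25 and 6.11 h and at 5.68 and 4.77 h. POLR3D had the highest ratio, 0.41, with 3.70 and 4.91 h. Of the subunits missed by the name pattern, POLR3GL was 1.82-fold shorter-lived, from 11.4 to 6.28 h, and CRCP had 2.76 and 2.72 h.

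Mediator had members on both sides in its head, middle and tail modules. Of its 27 members 6 were longer-lived (22.2%, against 28.5% of all genes) and 7 shorter-lived (25.9%, against 24.9%). The median of the log2 ratios was -0.13. In the head, which contacts the polymerase, 3 of 9 were longer-lived and 3 shorter-lived. MED29 (chromosome 19, 39391303 to 39400637) went from 6.23 to 33.8 h (5.43-fold longer), MED19 from 1.55 to 3.49 h (2.25-fold) and MED8 from 5.74 to 11.0 h (1.92-fold). MED27 (chromosome 9, 131860107 to 132079908) went from 11.3 to 4.30 h (2.62-fold shorter), MED20 from 6.50 to 2.53 h (2.57-fold) and MED28 from 10.5 to 5.92 h (1.77-fold). MED17, the scaffold of the head, was short-lived in both treatments, at 1.12 and 0.754 h, and stayed within 1.5-fold.

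In the middle module 2 of 8 were longer-lived and 1 shorter-lived. MED26, which recruits elongation factors, went from 0.818 to 1.26 h (1.54-fold longer), and MED1, the subunit that binds nuclear receptors, from 3.17 to 5.10 h (1.61-fold). MED10 went from 3.79 to 1.65 h (2.30-fold shorter), and MED14, the backbone of the complex, had 11.1 and 9.08 h. In the tail, which activators contact, MED25 went from 10.6 to 4.23 h (2.52-fold shorter) and MED15 from 4.49 to 2.47 h (1.81-fold). MED24 alone was longer-lived there, from 45.4 h to the ceiling, and MED23 had 2.92 and 3.15 h.

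In the kinase module CDK8, the Mediator kinase (ENSG00000132964.12, chromosome 13, 26254104 to 26405238), went from 9.01 to 2.21 h. It was 4.08-fold shorter-lived, and no other member was shorter-lived past 4-fold. The other subunits of the module that matched the name pattern stayed within 1.5-fold. MED12 had 16.8 and 15.4 h, and MED13 had 2.02 and 1.71 h. MED12L had 1.69 and 1.55 h, and MED13L had 1.52 and 2.20 h. CCNC, the cyclin that CDK8 binds, taken from a list of pathway genes outside the name pattern, was 1.95-fold shorter-lived, from 10.1 to 5.18 h. CDK19, the kinase that can replace CDK8, had 5.62 and 6.60 h, a log2 ratio of 0.23.

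The TAFs of TFIID and SAGA had the highest median ratio of the groups with more than 3 members. Longer-lived were 6 of the 15 (40%, against 28.5% of all genes) and shorter-lived 2 (13.3%, against 24.9%). The median of their log2 ratios was 0.37. TAF5 (ENSG00000148835.11, chromosome 10, 103367967 to 103389065), a scaffold of the TFIID lobes, went from 4.09 h to the ceiling, and its SAGA counterpart TAF5L from 2.19 to 8.73 h (3.99-fold longer). TAF6L, of SAGA, went from 5.02 h to the ceiling, while its TFIID counterpart TAF6 had 22.3 and 15.4 h, a log2 ratio of -0.53. TAF7, which binds TAF1, went from 2.36 to 9.47 h (4.00-fold longer) and TAF8 from 2.44 to 5.05 h (2.07-fold). TAF10 went from 25.3 h to the ceiling. The shorter-lived pair, TAF11 and TAF13, encodes histone-fold partners: TAF11 went from 14.1 to 6.16 h (2.29-fold) and TAF13 from 4.74 to 3.00 h (1.58-fold). TAF1, the largest subunit, had 3.83 and 2.84 h. Without the members at the ceiling the median of the group was 0.21.

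SL1 is the promoter factor of RNA polymerase I. Its TAF1D transcript was the shortest-lived of all members in DMSO, with 0.792 and 0.865 h, and its exons overlap 7 small nucleolar RNA genes and a microRNA gene, all on the same strand. TAF1B was 1.86-fold longer-lived, from 1.95 to 3.62 h, and TAF1C had 5.64 and 4.57 h.

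The other general factors that matched the name pattern mostly stayed within 1.5-fold. Of the 9 transcripts of TFIIA, TFIIB, TFIIE, TFIIF and TFIIH, 7 did (77.8%, against 46.6% of all genes). Longer-lived was 1 (11.1%, against 28.5% of all genes), and shorter-lived 1 (11.1%, against 24.9%). GTF2E2, a TFIIE subunit, went from 7.03 to 15.6 h (2.21-fold longer), and GTF2H3, of the TFIIH core, from 4.47 to 2.33 h (1.92-fold shorter). GTF2B, the single-chain factor TFIIB, had the shortest half-lives of this group, 2.10 and 1.55 h, and GTF2H5, at 17.8 and 12.9 h, the longest in DMSO. The 8 apart from GTF2E2 had log2 ratios below 0, as did 4520 of all 8996 genes. Of the TFIIH subunits outside the name pattern, CCNH and MNAT1, the partners of CDK7, were 1.96-fold and 2.59-fold shorter-lived, and the helicase ERCC3, at a log2 ratio of -0.59, lay just past the rule. The helicase ERCC2 stood at 0.16. GTF2IRD1, of the TFII-I family, had 2.57 and 1.93 h.

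TFIIIC and TFIIIA recruit RNA polymerase III to transfer RNA and 5S genes. GTF3C1 and GTF3C4 were 2.19-fold and 1.80-fold longer-lived, from 11.1 to 24.2 h and from 2.11 to 3.80 h. GTF3C3 was 2.04-fold shorter-lived, from 5.63 to 2.76 h. The other 4 lay within 1.5-fold, among them GTF3C6, just inside the rule at 14.5 and 9.67 h, and GTF3A, the longest-lived of the group in DMSO, at 20.5 and 16.4 h.

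Integrator ratios ran from a log2 value of -0.59 to one of 4.58. Longer-lived were 5 of the 13 (38.5%, against 28.5% of all genes), and 1 was shorter-lived (7.69%, against 24.9%). The median of the log2 ratios was 0.03, and -0.04 without the members at the ceiling. INTS5 (ENSG00000185085.2, chromosome 11, 62646848 to 62653302) went from 2.91 h to the ceiling, a log2 ratio of 4.58 and the highest among all members. INTS14 (chromosome 15, 65578753 to 65611289), of the arm module, went from 4.96 h to the ceiling. INTS11 (chromosome 1, 1311585 to 1324691), the endonuclease of the complex, went from 4.33 to 20.7 h (4.78-fold longer), INTS7 from 7.23 to 22.4 h (3.09-fold) and INTS4 from 5.98 to 10.4 h (1.74-fold). INTS9, the partner of INTS11 in the cleavage module, had 7.63 and 5.56 h, a log2 ratio of -0.46. INTS8 lay just past the rule, from 8.38 to 5.58 h, a log2 ratio of -0.59. The shortest-lived member, INTS6, had 1.04 and 0.958 h, and INTS1, the longest-lived in DMSO, had 11.2 and 15.5 h. INTS2, INTS12 and INTS13 had log2 ratios between -0.07 and 0.03. C7orf26, an older name of INTS15, was 2.40-fold longer-lived.

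**Figure D3:**
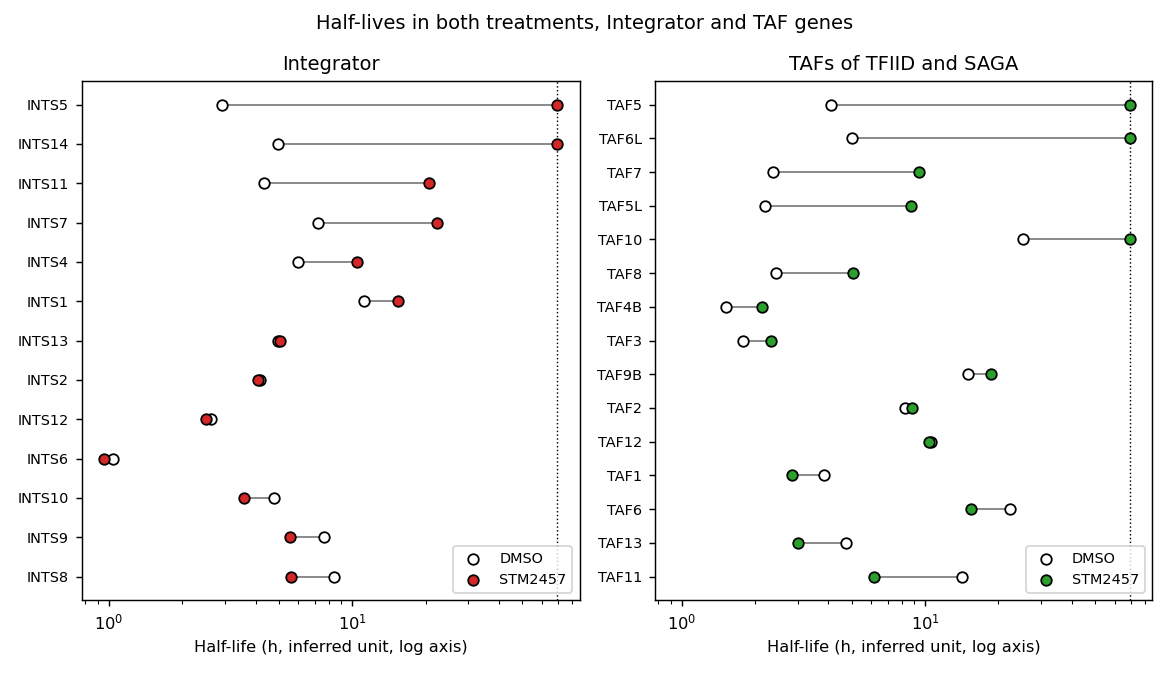
Half-lives in DMSO (open circles) and in STM2457 (filled circles) for the 13 Integrator genes and the 15 TAFs of TFIID and SAGA, in hours as an inferred unit on a log axis, ordered by ratio. The dotted line is the ceiling at 69.3 h, which INTS5, INTS14, TAF5, TAF6L and TAF10 reached in STM2457.

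Among the elongation factors, 1 of the 2 P-TEFb cyclins was longer-lived and 2 of the 7 SPT transcripts were shorter-lived. CCNT1 and CCNT2 encode the alternative cyclins of P-TEFb and were both short-lived in DMSO, at 1.00 and 1.06 h. CCNT1 (chromosome 12, 48688458 to 48716998) reached 2.67 h in STM2457 (2.67-fold longer) and CCNT2 1.36 h, within 1.5-fold. SUPT4H1 and SUPT5H form the pausing and elongation factor DSIF, and SUPT16H belongs to the histone chaperone FACT. SUPT4H1, SUPT5H, SUPT6H and SUPT16H had 4 log2 ratios below 0, where 4520 of all 8996 genes had one. SSRP1, the FACT partner of SUPT16H from the list outside the name pattern, went the other way, from 29.7 h to the ceiling. SUPT5H was shorter-lived, from 8.80 to 5.35 h (1.64-fold), and the other 3 were within 1.5-fold. Of the SPT subunits of SAGA, SUPT3H was 2.03-fold shorter-lived, from 9.30 to 4.58 h, SUPT20H had 2.94 and 2.28 h, and SUPT7L had 3.20 and 4.69 h. The pseudogene SUPT16HP1 was listed at 9.33 and 43.6 h (4.67-fold longer), where its parent gene SUPT16H had 17.3 and 12.8 h, and reads of these near copies may be split between them.

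Fewer members passed 1.5-fold in synthesis rate than in half-life. Their unit is not named in the table, so rates are compared within a gene, between treatments. Of the 111 members, 13 had a rate higher past 1.5-fold in STM2457 (11.7%, against 12.6% of all genes with a ratio) and 15 a lower rate (13.5%, against 13.2%). The median log2 ratio of synthesis was -0.01, against -0.06 over all genes. The lowest ratios were those of INTS5, from 196 to 71.5 (log2 ratio -1.45), and TAF7, from 181 to 68.3 (-1.40). SUPT3H, from 13.6 to 6.45, had a log2 ratio of -1.08. The highest were those of TAF6, from 31.1 to 68.3 (1.14), and CDK8, from 17.3 to 33.7 (0.96). At the low end INTS5 and TAF7 were longer-lived and SUPT3H shorter-lived, and at the high end TAF6 stayed within 1.5-fold in half-life and CDK8 was shorter-lived.

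Over all genes 45.3% of synthesis ratios were above 0 and 54.7% below. All 5 shared polymerase subunits had synthesis ratios above 0, with a median of 0.42, and POLR2L and POLR2K passed 1.5-fold, at 0.88 and 0.77. Their half-lives in DMSO ran from 8.85 to 45.1 h. Of the 2370 genes over 10 h in DMSO, 1863 had a synthesis ratio above 0 (median 0.42), and 38.1% were higher past 1.5-fold. RNA polymerase II subunits had 5 of 7 above 0, with POLR2I at 0.88. In Integrator 10 of 13 were below 0 (median -0.41), and INTS5, INTS14, INTS7 and INTS10 were lower past 1.5-fold. TAFs of TFIID and SAGA had 11 of 15 below 0 (median -0.26), with 4 lower past 1.5-fold (TAF7, TAF6L, TAF5L and TAF1) and 3 higher (TAF6, TAF2 and TAF10, at 1.14, 0.78 and 0.59). These groups differ in length: the median length in the table was 1802 bases for shared polymerase subunits and 3285 for Integrator. Across the 111 members Spearman's rho between length and the synthesis ratio was -0.38, and across 8993 genes it was -0.25. The parts of length and of DMSO half-life in the synthesis ratios of the complexes were not tested.

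The ratios of half-life and of synthesis were weakly and inversely related, and the table does not say whether both quantities came from a joint fit. Spearman's rho between both log2 ratios was -0.37 over the members and -0.35 over all genes. Of 28 longer-lived members 19 had a synthesis ratio below 0 (71.2% of all longer-lived genes did), and of 19 shorter-lived members 11 had one above 0 (66.9% of all shorter-lived genes did). The product of both, an implied steady-state abundance, was 14.6-fold the DMSO level for TAF5 and 8.72-fold for INTS5. With 6 h of synthesis at the higher of both fitted rates and no decay, these transcripts could reach 2.02-fold and 2.43-fold. Of the 111 members 23 exceeded that bound (20.7%, against 21.9% of all genes), 19 of them longer-lived. The steady state implied by their ratios could thus not be reached within 6 h. Whether those half-life ratios hold was not tested, and their size stays uncertain. The bound is lower for genes with a long DMSO half-life: 44% of all genes over 10 h exceeded it, and 11.7% of those under 3 h. TAF7, TAF5L, CCNT1, MED19, TAF8, GTF3C4, MED1, MED26 and TAF1B were longer-lived and stayed under the bound.

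**Figure D4:**
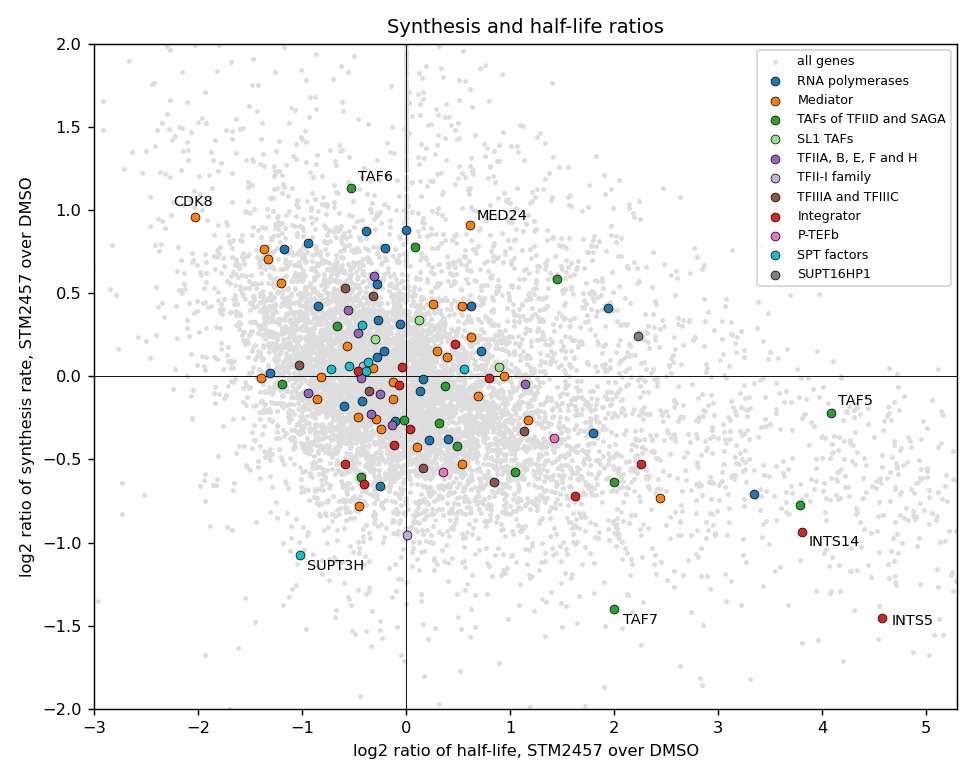
The log2 ratio of half-life (x axis) and of synthesis rate (y axis), both STM2457 over DMSO, for all genes (grey, 107 of which lie outside the axes or have no ratio) and for the members by group (colours). INTS5, INTS14 and TAF7 lie at the lower right, CDK8 at the upper left and SUPT3H at the lower left.

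The series title concerns m6A in coding regions, and m6A is deposited in the motif DRACH (A, G or T, then A or G, then the A that is methylated, then C, then A, C or T). Motifs were counted on the transcript strand of the coding sequence where the methylated A lies at least 100 nt from every exon junction, since exon junction complexes are known to shield nearby sequence from methylation. Such a count is read from sequence and is no measurement of m6A. Of 109 members with an annotated coding sequence, 21 had 10 or more far motifs (19.3%, against 25.2% of all genes) and 27 had 0 (24.8%, against 25.5%). Coding sequence of 120 bases is printed here for the 6 members with the highest half-life ratios among those with 10 or more far motifs and for the 2 members with the lowest ratios of all. Each stretch is the window of its gene with the most far motifs inside 1 exon, written 5′ to 3′ on the transcript strand, with far motifs in capitals (GENCODE release 29 transcripts).
INTS5, exon 2 of 2, chr11:62647883-62648002, minus strand: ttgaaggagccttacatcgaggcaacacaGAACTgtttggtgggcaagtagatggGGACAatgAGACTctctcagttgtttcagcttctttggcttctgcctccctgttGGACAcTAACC
TAF5, exon 3 of 11, chr10:103378312-103378431, plus strand: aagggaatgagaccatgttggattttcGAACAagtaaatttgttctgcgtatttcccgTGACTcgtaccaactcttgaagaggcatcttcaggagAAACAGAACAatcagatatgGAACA
TAF6L, exon 11 of 11, chr11:62786616-62786735, plus strand: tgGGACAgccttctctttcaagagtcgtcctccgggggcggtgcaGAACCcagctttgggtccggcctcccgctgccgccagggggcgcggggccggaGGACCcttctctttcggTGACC
POLR1B, exon 16 of 16, chr2:112575260-112575379, plus strand: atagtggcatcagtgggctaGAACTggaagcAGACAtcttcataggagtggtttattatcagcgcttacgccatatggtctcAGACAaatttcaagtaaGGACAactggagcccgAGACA
TAF7, exon 1 of 1, chr5:141319223-141319342, minus strand: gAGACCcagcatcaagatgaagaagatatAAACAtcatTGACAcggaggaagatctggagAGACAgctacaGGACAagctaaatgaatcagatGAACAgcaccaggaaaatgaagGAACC
TAF5L, exon 4 of 5, chr1:229602656-229602775, minus strand: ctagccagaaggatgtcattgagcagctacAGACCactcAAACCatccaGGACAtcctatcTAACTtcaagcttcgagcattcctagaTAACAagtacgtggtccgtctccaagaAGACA
CDK8, exon 1 of 13, chr13:26254642-26254761, plus strand: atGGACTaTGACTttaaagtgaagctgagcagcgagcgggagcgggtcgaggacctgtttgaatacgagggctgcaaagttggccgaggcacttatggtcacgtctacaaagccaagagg
MED27, exon 1 of 8, chr9:132079725-132079844, minus strand: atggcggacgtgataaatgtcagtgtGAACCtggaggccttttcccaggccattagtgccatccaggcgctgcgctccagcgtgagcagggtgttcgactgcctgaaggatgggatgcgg

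DRACH itself is common: 88.8% of 80727 coding windows of 120 bases, tiled inside exons over all genes, hold at least 1, and 90.2% of 1056 such windows of the members do. Of these windows 20.6% and 21.2% hold 4 or more. The genes printed differ in how much of their coding sequence lies in long exons. INTS5 has 2977 coding bases in its last exon and 37 far motifs, and TAF7 holds its whole coding sequence of 1047 bases in 1 exon, with 29. POLR1B has 21 far motifs, TAF5 19, TAF6L 11 and TAF5L 32. CDK8 and MED27 have 3 and 2, and the longest stretches of coding sequence in their exons are 159 and 203 bases. The windows of CDK8 and MED27 open at the start codon, and each shows all but 1 of the far motifs of its gene.

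Members with many far motifs were short-lived in DMSO, and more of them were longer-lived in STM2457. For the 21 members with 10 or more, the median was 2.45 h in DMSO, 3.80 h in STM2457 and 0.62 for the log2 ratio. Of them 11 were longer-lived (45.9% of all genes of that class were) and 1, POLR2M, was shorter-lived (10.5% of all genes of that class were). Besides the 6 with printed sequence, the longer-lived were CCNT1, with 30 far motifs, GTF3C1 with 17, GTF3C4 with 38, MED26 with 32 and MED1 with 74. Other members with many far motifs stayed near their DMSO half-life: MED13 with 41, TAF3 with 42, CCNT2 with 32 and MED13L with 40 stayed within 1.5-fold, and their log2 ratios ran from -0.24 to 0.54. Of the 15 TAFs of TFIID and SAGA 7 had 10 or more far motifs (46.7%, against 25.2% of all genes). The part of this in the median half-life ratio of the TAFs was not tested.

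The 27 members with 0 far motifs had a median of 6.17 h in DMSO, one of 5.92 h in STM2457, and -0.20 for the log2 ratio. Of them 5 were longer-lived and 5 shorter-lived (22.1% and 32.6% of all genes with 0). The classes with 1 to 3 and 4 to 9 motifs held 42 and 19 members, with medians of -0.32 and -0.11. Over all genes the 4 classes had medians of -0.22, -0.22, -0.02 and 0.48. The order of the members was thus near that of all genes. Of the 27 longer-lived members with a coding sequence 12 had under 4 far motifs (41% of all such longer-lived genes did), among them POLR2G with 0, INTS11 with 1, and MED29 and INTS7 with 3. INTS14 had 5. Of the 19 shorter-lived members 16 had under 4 (71% of all such shorter-lived genes did).

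The half-life in DMSO moves with these counts and is also the denominator of the ratio; its part in the class difference was not tested. Spearman's rho between far motifs and the DMSO half-life was -0.42 over the 109 members, and between far motifs and the half-life ratio it was 0.29. Among members under 3 h in DMSO, 7 of the 13 with 10 or more far motifs were longer-lived and 3 of the 15 with fewer were, near the 57.1% and 24.9% of all genes in these classes. The median log2 ratios of these members were 0.62 and 0.11. Among those between 3 and 10 h the counts were 3 of 7 and 8 of 48 (32.9% and 19.7% of all genes in these classes), with medians of 0.55 and -0.27. Over 10 h only GTF3C1 had 10 or more.

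**Figure D5:**
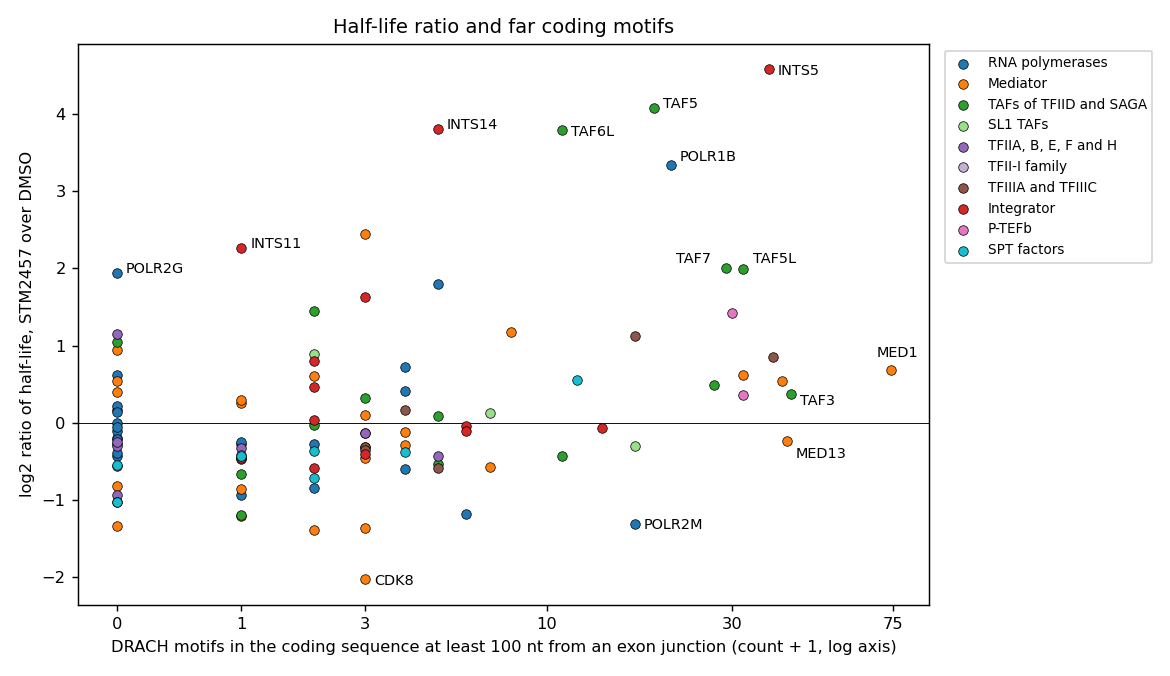
The log2 ratio of half-life (y axis) against the number of DRACH motifs in the coding sequence at least 100 nt from an exon junction (x axis, count plus 1 on a log axis) for the 109 members with a coding sequence, coloured by group. Members on the right lie mostly above 0, with POLR2M and MED13 among the exceptions, and INTS14 and INTS11 are high with few motifs.

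Paralog pairs of the machinery included pairs far apart in half-life and pairs far apart in ratio. MED12 and MED12L have 3 and 4 far motifs and log2 ratios of -0.13 and -0.12, but half-lives in DMSO of 16.8 and 1.69 h. MED13 and MED13L, with 41 and 40 far motifs, had 2.02 and 1.52 h in DMSO and log2 ratios of -0.24 and 0.54. CCNT1 and CCNT2, with 30 and 32, had nearly equal half-lives in DMSO and log2 ratios of 1.42 and 0.36. TAF6 and TAF6L, with 5 and 11, had log2 ratios of -0.53 and 3.79. POLR3G and its paralog POLR3GL, both with 0, had log2 ratios of -0.21 and -0.87. With 1 fitted value per gene and treatment, none of these differences could be tested.

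Other genes of the pathway came from lists of factors outside the name pattern. SEM1 is counted among them, although it is not an established subunit of these complexes. Of 72 listed genes 62 were in the table, 19 of them longer-lived and 13 shorter-lived, where 28.5% and 24.9% of all genes were. The median of their log2 ratios was -0.09. The highest ratio was that of IWS1, a partner of SUPT6H, from 3.85 h to the ceiling. NABP2, a partner of INTS3 rather than an Integrator subunit, and MNAT1 had the lowest, both -1.37. P-TEFb is held inactive by the 7SK particle, and its components MEPCE and HEXIM1 were 9.63-fold and 4.59-fold longer-lived, from 2.03 to 19.6 h and from 2.39 to 11.0 h. Both exceeded the bound on implied abundance. LARP7, which binds the 7SK RNA, had 6.86 and 5.60 h, and the NELF subunits NELFA, NELFB and NELFCD also stayed within 1.5-fold. Among kinases and factors of elongation CDK12 was 2.63-fold and ELL2 2.12-fold longer-lived. Of these 10 genes 4 were longer-lived and 0 shorter-lived, and 6 had 10 or more far motifs. Over all genes of that motif class 45.9% were longer-lived and 10.5% shorter-lived. Of 9 genes listed for polymerase assembly 4 were shorter-lived (24.9% of all genes were), GPN1, GPN3, RPAP1 and RPAP3. The longer-lived 1 was RPRD2 (28.5% of all genes were longer-lived). TBP, the core of TFIID and SL1, had 1.73 and 1.57 h.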

How the data were processed

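The deposited table gives, per the file headers, fitted half-lives, synthesis rates and log2 ratios of STM2457 over DMSO, made by the authors from SLAM-seq of 18 samples. The tools named, per the submitters' processing notes, are FastQC 0.11.9 and the aligner STAR 2.7.8a, and the build is GRCh38.p12. The software of the kinetic fit, the gene annotation and the filter on genes are not given in the sources used. No column names a sample.

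The log2 ratios were recomputed and differed from the authors' deposited log2 columns by at most 1.27e-14. The 3 genes with no synthesis ratio were left out of synthesis counts. Half-lives within 1e-06 of the largest were taken as at the ceiling. All 111 member identifiers matched GENCODE release 29 (GRCh38). Each gene was represented by its protein-coding transcript of longest coding sequence (8527 genes, 109 members). The motif counter was tested on simulated sequences.

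Members, complexes and pathway lists were chosen with earlier results of these data known. Genes named are, in each complex, those with the highest and lowest ratio and the longest and shortest DMSO half-life, all of complexes with 3 or fewer, catalytic subunits, kinases and cyclins, members past 4-fold or at the ceiling, and the ends of the pathway list; others named were chosen after their values were seen. Python 3.11.15, pandas 2.3.3, NumPy 2.4.6, SciPy 1.17.1 and Matplotlib 3.10.9 were used.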

Additional observations from a re-analysis of the deposited data

How the results depend on the processing

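No paired analysis was possible because the table has 1 value per gene and treatment, so that no replicate could be left out either. The 28 longer-lived members became 15 and the median log2 ratio of -0.11 became -0.25 with both half-lives between 0.5 and 24 h; the mean was 0.20. At 2-fold, 10 members were shorter-lived, and 1 had higher and 3 had lower synthesis. The other alternatives kept the counts within 1.5 times and the median within 0.1. The difference in median log2 ratio between members with 10 or more and with 0 far motifs was 0.82. It was -0.74 at 50 nt from a junction, where 2 members had 0 motifs, 0.93 at 200 nt, 0.66 with the transcript of most coding exons and 2.25 for GGACH, where 3 members had 10 or more. Chosen after seeing the data, 4 or more against 0 to 3 motifs gave 0.65, and 0.72 was found within 0.5 to 24 h. The median ratio of single complexes moved by 0.1 or more in 16 alternatives and by less in 39. It changed sign for the Mediator head (0.26 to -0.15 within 0.5 to 24 h), for the own subunits of RNA polymerase II (-0.28 to 0.17 without members with same-strand overlap, 0.02 as a mean), for the Mediator middle (0.00 to -0.29 without such members, -0.02 as a mean) and for Integrator (0.03 to -0.04 within 0.5 to 24 h, without the ceiling and without such members).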
